A study of Mus musculus with 13 samples.

Results

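Foxo1, Foxo3 and Foxp1 encode forkhead transcription factors, and their 3 transcripts, chosen by gene name, were followed among the 94 genes measured by quantitative PCR in 1449 single mouse CD8+ T cells. The cells carried the transgenic OT-1 receptor, which recognises an ovalbumin peptide, and the CD45.1 allele. Apart from the naive cells, they were sorted from the spleens of congenic wild-type C57BL/6J mice (CD45.2) into which they had been transferred, after intravenous infection with 5000 colony-forming units of Listeria monocytogenes expressing ovalbumin. Of the 13 populations, 1 was unactivated naive cells (149 cells). Day 2 gave 48 distal daughters, 83 proximal daughters and 144 cells after their first division, and day 3 gave 143 cells with no subset named, called unsorted here. Days 5 and 7 each gave unsorted cells (154 and 134), memory precursors called Tmp (90 and 62) and short-lived effectors called Tsle (79 and 89). Day 45 gave 138 cells of central memory, Tcm, and 136 of effector memory, Tem. Recipients had been given 2000000 CFSE-labelled OT-1 cells for the first-division cells, 20000 for day 3 and 5000 for days 5, 7 and 45, so that number transferred and time cannot be told apart between first-division cells, day 3 and the later days. Sorting used antibodies to CD8, CD44 and non-CD8 lineages, while the markers that split Tmp from Tsle and Tcm from Tem, and the number of mice, were not found in the sources used. Each population is 1 sample, its cells are not replicates, and no test or p-value is therefore given. Shares of cells are followed by exact (Clopper-Pearson) 95% intervals, which cover counting error only.

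Forkhead factors share a DNA-binding domain of the winged-helix type. Foxo1 and Foxo3 stay in the nucleus of resting T cells, and antigen receptor and interleukin-2 signalling, through phosphatidylinositol 3-kinase and Akt, drives them into the cytoplasm by phosphorylation. In T cells Foxo1 is known to promote transcription of Il7r, the receptor chain for the survival cytokine interleukin-7, and of Klf2, a factor that keeps lymphocytes recirculating. Foxp1 holds naive T cells in quiescence and has been described as competing with Foxo1 for a forkhead site in an Il7r enhancer. Since the activity of the Foxo factors is set largely by where the protein is in the cell, a transcript count does not measure it.

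On the mouse genome build GRCm38.p6 Foxo1 lies on chromosome 3, Foxo3 on chromosome 10 and Foxp1 on chromosome 6. The deposited values grow with the amount of template, with 0 for no detection. They are on the scale of PCR cycles, where 1 cycle is a doubling at full efficiency. Actb and R18s were above 0 in 100% of the cells of every population, and cells had a median count of detected assays that ran from 11 in Tem to 19 in unsorted day 5 cells. Cd8a was above 0 in 48.0% of all cells (27.3 to 65.1% by population). Of genes not particular to CD8 T cells, Ptprc was above 0 in 94.3%, Thy1 in 38.4% and Cd44 in 3.24%. Of markers of other T cells, Cd4 and Foxp3 were each above 0 in 2 cells (0.138%), and Gata3 in 53 (3.66%). The files do not mark which array held which cell, so each population was also divided in file order into its earlier and later columns. Between these, 0 to 9 of the 95 assay rows were at least 20 percentage points apart in share.

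Over all cells, Foxo1 was found in 368 (25.4%, 23.2 to 27.7%), Foxp1 in 295 (20.4%, 18.3 to 22.5%) and Foxo3 in 163 (11.2%, 9.67 to 13.0%). Foxo1 stayed within 14.6 to 41.8% in 12 populations and was found in 4.41% of Tem cells. Foxp1 was found in 25 to 39.9% of cells in the 5 populations up to day 3 and in 5.88 to 17.7% in the 8 populations from day 5 on. Foxo3 lay between 6.25 and 17.2% throughout, and 0 of 78 pairs of populations had intervals that did not overlap, against a median of 13 over 87 assays and 18.5 over the 10 assays closest to it in share.

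**Figure D1:**
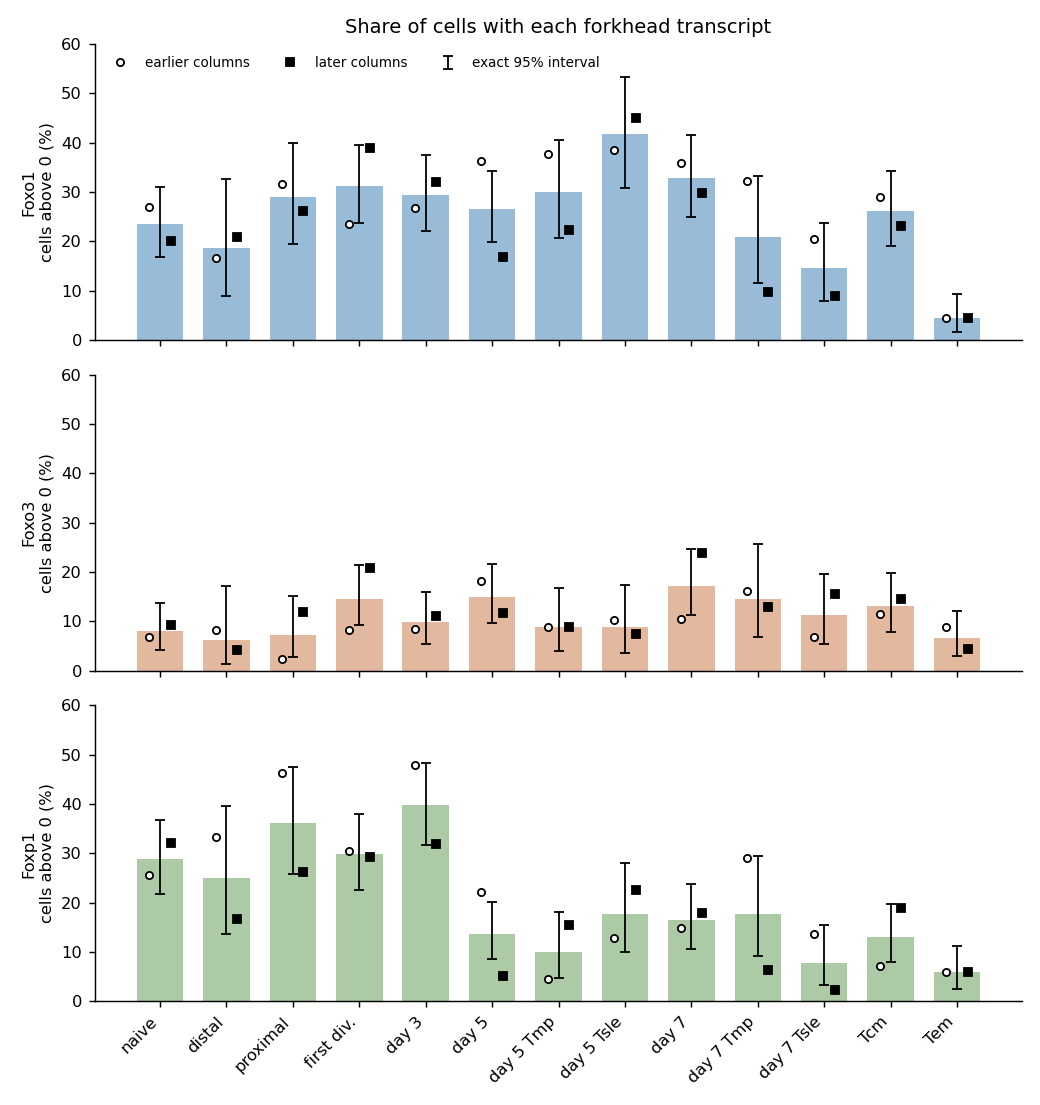
Share of cells above 0 (percent, bars) for Foxo1, Foxo3 and Foxp1 in the 13 populations, with exact 95% intervals, and the share in the earlier (open circles) and later (black squares) columns of each population. Tem has the lowest Foxo1 bar at 4.41%, the 5 Foxp1 bars up to day 3 stand at 25% or more and the 8 from day 5 on at 17.7% or less, and the Foxo3 bars lie between 6.25 and 17.2%.

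Foxo1 was found in 23.5% of naive cells (16.9 to 31.1%), 18.8% of distal cells (8.95 to 32.6%), 28.9% of proximal cells (19.5 to 39.9%), 31.2% of first-division cells (23.8 to 39.5%) and 29.4% of day 3 cells (22.1 to 37.6%). At day 5 it was found in 26.6% of unsorted cells (19.8 to 34.3%), 30.0% of Tmp (20.8 to 40.6%) and 41.8% of Tsle (30.8 to 53.4%). At day 7 the shares were 32.8% in unsorted cells (25 to 41.5%), 21.0% in Tmp (11.7 to 33.2%) and 14.6% in Tsle (8.01 to 23.7%), and at day 45 they were 26.1% in Tcm (19.0 to 34.2%) and 4.41% in Tem (6 of 136 cells, 1.64 to 9.36%). Unsorted cells thus lay below both Tmp and Tsle at day 5 and above both at day 7. They had more assays above 0 than Tmp and Tsle, with medians of 19 against 16 and 17 at day 5 and 17 against 14 and 13 at day 7. Why samples of the same day differed this way was not tested. In the order by share from day 5 Tsle down to Tem, each of the 12 neighbouring pairs had overlapping intervals. Of all 78 pairs of populations, 13 did not overlap, against a median of 13 over 87 assays and 25.5 over the 10 assays closest to Foxo1 in share. Tem was the lower one in 10 of the 13 Foxo1 pairs. Day 7 Tsle was the lower one in the other 3, against first-division, day 5 Tsle and unsorted day 7 cells.

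Through the effector response no unsorted population was 20 points from naive cells in Foxo1. Its share differed from naive by 7.76 points after the first division, by 5.88 in day 3 cells, by 3.13 in those of day 5 and by 9.35 in those of day 7. None of these reached the size of 20 points used here to call a difference, which 13.7, 12.6, 16.8 and 13.7% of the 95 assay rows reached in the same comparisons. The comparisons with naive cells share those cells. At day 5 the direction depended on the part of the columns, since pairings of earlier and later columns ran from -10.1 to 16.4 points. The first-division difference was -3.42 points with the earlier columns alone and 18.9 with the later ones. Among cells with 8 to 14 other assays above 0, a window chosen after the values were seen, the difference from naive was 20.7 points at day 3, reaching the size, and -10.9 at day 5. How many of all assay rows reach 20 points within this window was not counted, here or below. Whether such differences are common there is therefore not known.

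Tem and Tcm cells differed more. Foxo1 was found in 4.41% of Tem against 26.1% of Tcm (-21.7 points, and -24.6 to -18.8 between pairings of column parts), past the size that 12.6% of assay rows reached. Between Tem and naive cells the difference was -19.1 points (4.41 against 23.5%), just short of that size, which 10.5% reached (7.37% with a lower share). Tem cells also had fewer assays above 0 than Tcm (median 11 against 17) and lower median values of Actb (17.13 against 20.99) and R18s (25.74 against 27.34). The share of Foxo1 in Tem was 0.169 times that in Tcm, where the median of the 34 assay rows found in at least 10% of Tcm cells was 0.470, and 3 of them had a lower ratio.

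Among cells with a like number of other assays above 0, 8 to 14, the contrast of the memory populations did not hold. Foxo1 was found in 5 of 116 such Tem cells (4.31%, 1.41 to 9.77%) and 0 of 28 such Tcm cells (up to 10.7% from 3 cells), while naive cells kept 23.0% (29 of 126, 16 to 31.4%). All 138 Tcm cells had at least 10 assays above 0, so the 36 with Foxo1 all lay above that window. The call between Tem and Tcm thus rests on Tcm cells with more assays than the window allows. The difference between Tem and naive cells was -18.7 points within it.

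**Figure D2:**
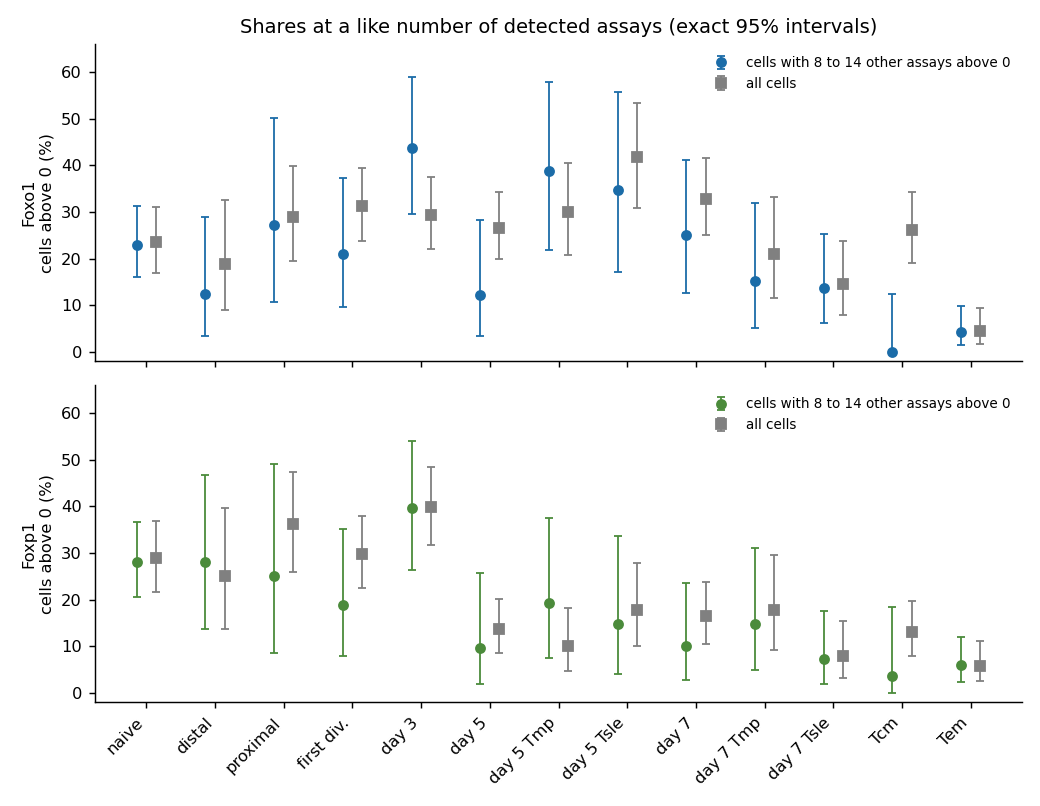
Share of cells above 0 (percent) for Foxo1 (top) and Foxp1 (bottom) among cells with 8 to 14 other assays above 0 (coloured circles) and among all cells (grey squares), with exact 95% intervals. Foxo1 is at 0% of Tcm cells in the window against 26.1% of all Tcm cells, and Foxp1 keeps 39.6% at day 3 and 9.68% at day 5. In the window Foxp1 is at 18.9% of first-division and 19.4% of day 5 Tmp cells.

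In cells that had it, Foxo1 had a median value of 13.78 in naive cells (lowest 9.89, highest 15.48), 15.70 among distal daughters, 14.20 among proximal ones and 15.87 after the first division (12.60 to 17.48). The medians were 14.25 at day 3 and, at day 5, 15.65 in unsorted cells (10.71 to 18.22), 14.70 in Tmp and 15.71 in Tsle. Unsorted day 7 cells had 15.28, Tmp of that day 14.96 and Tsle 13.41, while Tcm had 14.23 and Tem 13.47. First-division cells thus stood 2.08 cycles above naive, unsorted day 5 cells 1.87 and unsorted day 7 cells 1.5. A median difference of at least 1 cycle was common, reached by 41.9, 53.3 and 23.3% of the rows with at least 10 detected cells on both sides in these 3 comparisons. Centred on each cell's Actb and Gapdh, the differences were 0.27, 1.05 and 1.45 cycles, and centred on R18s 0.08, 1.59 and 0.26. After either centring the first-division difference was thus under 1 cycle. Foxo1 medians also differed between column parts of the same population. Earlier and later columns had 16.41 and 14.93 in first-division cells and 14.93 and 16.41 in unsorted day 5 cells. They had 15.87 and 14.44 in unsorted day 7 cells and 13.53 and 15.05 at day 3. The part medians of first-division and unsorted day 5 and 7 cells all lay above the naive 13.78, but the size of the difference depended on the part.

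Foxp1 was found in 28.9% of naive cells (21.7 to 36.8%), 25% of distal daughters (13.6 to 39.6%) and 36.1% of proximal ones (25.9 to 47.4%). It was found in 29.9% of cells after the first division (22.5 to 38.0%) and 39.9% at day 3 (31.8 to 48.4%). At day 5 the shares were 13.6% in unsorted cells (8.64 to 20.1%), 10% in Tmp (4.68 to 18.1%) and 17.7% in Tsle (10 to 27.9%). At day 7 they were 16.4% in unsorted cells (10.6 to 23.8%), 17.7% in Tmp (9.20 to 29.5%) and 7.87% in Tsle (3.22 to 15.5%). Tcm had 13.0% (7.92 to 19.8%) and Tem 5.88% (2.57 to 11.3%). Of the 78 pairs of populations, 25 had intervals that did not overlap, and each of the 25 set a population up to day 3 above one from day 5 on, of 40 such pairs. The median number of such pairs was 13 over 87 assays and 29.5 over the 10 assays closest to Foxp1 in share, so 25 is not a high number for its level. That division by time was chosen after the shares were seen. It was not complete among cells with 8 to 14 other assays above 0. There Foxp1 was found in 18.9 to 39.6% of cells up to day 3 and in 3.57 to 19.4% from day 5 on. First-division cells had 18.9% (7 of 37 cells) and day 5 Tmp 19.4% (6 of 31 cells).

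The Foxp1 shares parted between days 3 and 5. Foxp1 was found in 13.6% of unsorted day 5 cells against 39.9% of day 3 cells, a difference of -26.2 points. This comparison was added after the values were seen, and 22.1% of assay rows were at least 20 points apart in it, 9.47% with a lower share, and 14 of the 95 further apart than Foxp1. All 4 pairings of column parts had the same sign but ran from -42.7 to -9.87 points, where unsorted day 5 cells had Foxp1 in 22.1% of earlier but 5.19% of later columns. With 8 to 14 other assays above 0, the shares were 9.68% at day 5 (3 of 31 cells, 2.04 to 25.8%) and 39.6% at day 3 (21 of 53 cells, 26.4 to 54.0%). Foxo1 had a like difference in that window, with 12.1% at day 5 (4 of 33 cells) and 43.8% at day 3 (21 of 48 cells), -31.6 points for Foxo1 and -29.9 for Foxp1, although over all cells the Foxo1 difference was -2.75 points. The share of all assay rows at least 20 points apart within the window was not counted.

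Against naive cells the Foxp1 difference was -15.2 points at day 5, -12.4 at day 7 and -15.8 in Tcm, none of which reached 20 points (11.6% of rows did for Tcm). In Tem it was -23.0 points, which did (5.88 against 28.9%, and -26.1 to -19.8 between pairings). There 10.5% of assay rows reached that size, 7.37% with a lower share. The Foxp1 share in Tem was 0.204 times that in naive cells. The median of the 30 rows found in at least 10% of naive cells was 0.587, and 6 of them had a lower ratio. In Tcm the ratio was 0.452 against a median of 1.01, and 1 of the 30 was lower. Among cells with 8 to 14 other assays above 0 it was found in 6.03% of Tem (7 of 116 cells) and 28.1% of naive cells (36 of 128). At day 3 the share was 11.0 points above naive, but 22.2 points with the earlier columns alone and -0.0556 with the later ones. First-division and naive cells differed by 1 point over all cells and by -9.21 points among those with 8 to 14 other assays.

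Where Foxp1 was found, its median value was 14.81 in naive cells, 15.55 among distal and 14.50 among proximal daughters, 15.93 after the first division and 15.35 at day 3. At day 5 the medians were 13.71 in unsorted cells (8.25 to 15.38), 13.70 in Tmp and 14.53 in Tsle. At day 7 they were 15.50 in unsorted cells, 14.55 in Tmp and 14.98 in Tsle, and at day 45 they were 14.34 for Tcm and 13.68 for Tem. The difference between unsorted day 5 and day 3 cells was -1.65 cycles (13.71 against 15.35), -3.12 after centring on Actb and Gapdh and -2.36 after centring on R18s. In that comparison 46.2% of rows differed by at least 1 cycle. Unsorted day 7 cells stood 1.80 cycles above those of day 5 (0.65 centred on R18s), where 51.2% of rows differed by at least 1 cycle, while the shares were 16.4 against 13.6%.

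**Figure D3:**
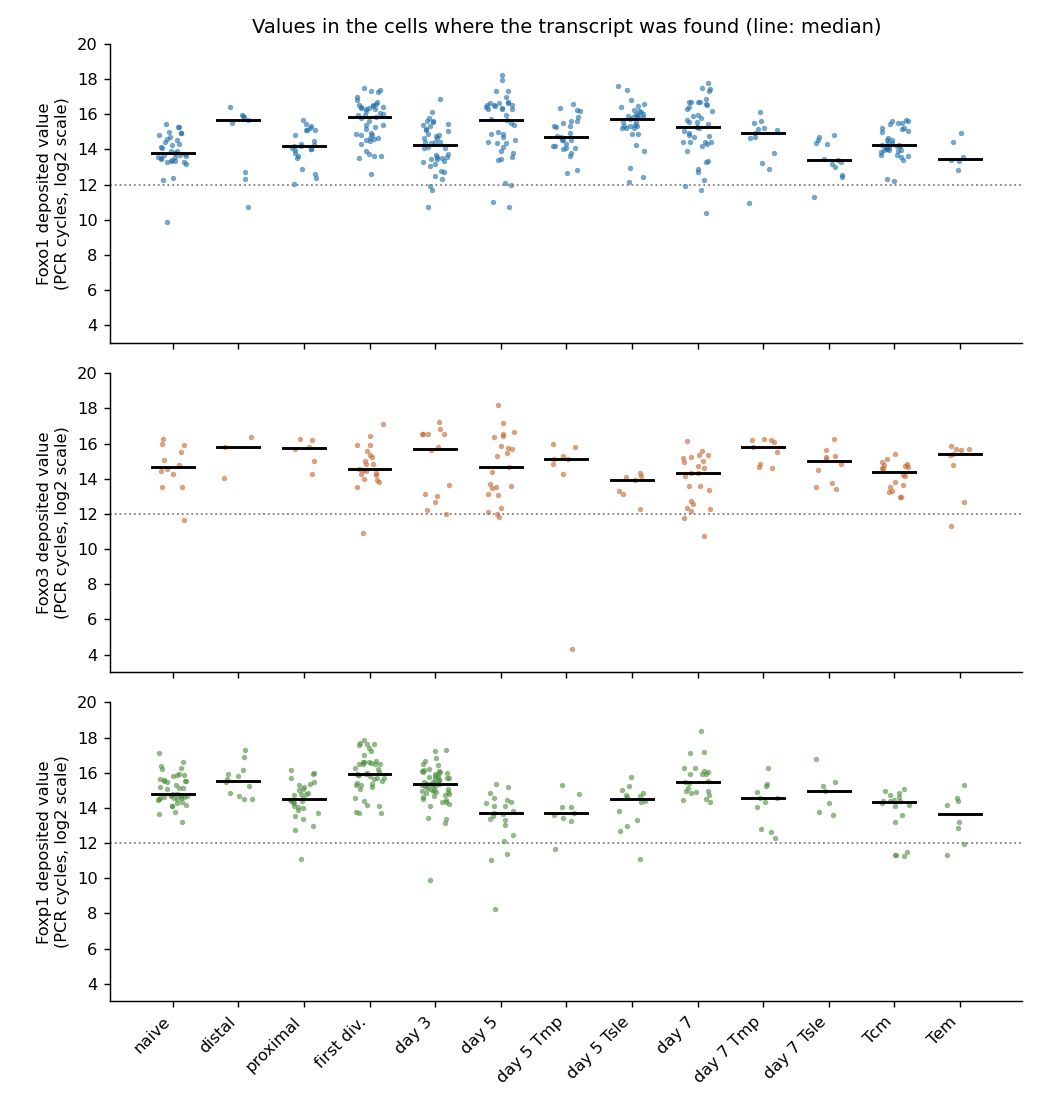
Deposited values (PCR cycles, log2 scale, larger meaning more template) of Foxo1, Foxo3 and Foxp1 in every cell above 0, by population, with the median as a black line and a dotted line at 12. Most points lie between 12 and 18, the first-division Foxo1 median of 15.87 stands above the naive 13.78, and the day 5 Foxp1 median of 13.71 stands below the day 3 one of 15.35.

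Foxo3 was found in 8.05% of naive cells (12 of 149, 4.23 to 13.6%), 6.25% of distal (3 of 48, 1.31 to 17.2%), 7.23% of proximal (6 of 83, 2.70 to 15.1%), 14.6% of first-division (9.26 to 21.4%) and 9.79% of day 3 cells (5.46 to 15.9%). At day 5 it was found in 14.9% of unsorted cells (9.71 to 21.6%), 8.89% of Tmp and 8.86% of Tsle, and at day 7 in 17.2% of unsorted cells (11.2 to 24.6%), 14.5% of Tmp and 11.2% of Tsle. Tcm had 13.0% (7.92 to 19.8%) and Tem 6.62% (3.07 to 12.2%). Its range of 10.9 points was narrower than that of each of the 10 assays closest to it in share over all cells, whose median range was 24.4 points. The ranges of Foxo1 and Foxp1, 37.4 and 34.0 points, stood beside medians of 41.4 and 44.0 points for their own 10 closest assays.

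The medians of Foxo3 in positive cells lay between 13.93 in day 5 Tsle and 15.81 among distal daughters, where only 3 cells had it. Day 3 cells with Foxo3 had a median of 12.86 among earlier columns and 16.55 among later ones, further apart than any 2 of the population medians. For unsorted day 5 cells these were 13.51 and 16.45. No order of populations is read from the height of Foxo3.

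Neither proximal and distal daughters nor Tsle and Tmp cells had a member 20 points apart. Foxo3 in any pair, and Foxp1 between Tsle and Tmp, could not reach that size, since their shares there were all under 20%. In proximal against distal cells Foxo1 was found in 28.9 against 18.8%, Foxp1 in 36.1 against 25% and Foxo3 in 7.23 against 6.25%, in a comparison where 8.42% of assay rows reached 20 points. Proximal cells had more assays above 0 (median 18 against 12). In day 5 Tsle against Tmp, Foxo1 was found in 41.8 against 30.0% and Foxp1 in 17.7 against 10%, where 5.26% of rows reached that size. In day 7 Tsle against Tmp both stood the other way, Foxo1 at 14.6 against 21.0% and Foxp1 at 7.87 against 17.7%, again with 5.26% of rows past the size. The Tsle share of Foxo1 was 1.39 times that of Tmp at day 5 and 0.697 times at day 7. Of the 37 and 31 assay rows found in at least 10% of Tmp cells, 31 and 10 had lower ratios. For Foxp1 the ratios were 1.77 and 0.443, with 34 and 5 rows lower. Pairings of column parts crossed 0 for Foxp1 at day 5 (-2.74 to 18.1 points) and for both genes at day 7 (-23.4 to 10.8 points for Foxo1, -26.8 to 7.18 for Foxp1). Among cells with 8 to 14 other assays the day 5 differences were -4.09 points for Foxo1 and -4.54 for Foxp1, the same order as at day 7 (-1.36 and -7.43). The day 5 values rest on few cells, with Foxo1 in 9 of 26 Tsle (17.2 to 55.7%) and 12 of 31 Tmp (21.9 to 57.8%). The intervals overlapped in each of these pairs.

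Of the 3 transcripts, Foxo1 was found in the same cells as Foxo3 and as Foxp1 somewhat more often than their shares give. Foxo3 and Foxp1 were found together about as often as their shares give. Over all populations, 794 cells had none of the 3 (54.8%), 495 had 1 (34.2%), 149 had 2 (10.3%) and 11 had all 3 (0.759%). With independent detection within each population, 771, 540, 129 and 9.10 cells would be expected. Foxo1 and Foxo3 were found together in 54 cells against 43.2 expected, a ratio of 1.25 (0.94 to 1.63, an exact Poisson interval of the count). Foxo1 and Foxp1 were found together in 95 cells against 80.9 expected (1.17, 0.95 to 1.43), and Foxo3 and Foxp1 in 33 against 32.4 (1.02, 0.70 to 1.43). These Poisson intervals, here and below, do not hold the shares of both genes fixed. They are therefore wider than the spread of joint counts under independence, most so for widely found genes, and an interval that spans 1 does not show independence.

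A ratio a little above 1 was usual. Over the 59 assays with at least 20 expected joint cells, the median ratio with Foxo1 was 1.06, with 48 above 1, and Foxo3 and Foxp1 ranked 5 and 14 among them. Cells with Foxo1 had a higher median number of other assays above 0 than cells without it in 9 of 13 populations and a lower one in 2. With each population divided into 3 by that number, the ratios were 1.19 for Foxo1 with Foxo3, 1.12 for Foxo1 with Foxp1 and 0.97 for Foxo3 with Foxp1. Beyond this, the part of depth in these ratios was not tested.

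The Foxo1 and Foxp1 pair was uneven over populations. In first-division cells 22 cells had both, against 13.4 expected, so that Foxp1 was found in 48.9% of cells with Foxo1 and 21.2% of cells without it (phi 0.28). In unsorted day 5 cells 11 had both, against 5.59 expected and 6.86 expected within column parts (26.8 against 8.85%, phi 0.23). At day 3 the order was the other way, with 13 cells against 16.7 expected (31.0 against 43.6%, phi -0.12), and in naive cells there was little difference (25.7 against 29.8%, phi -0.04). More cells than expected had both in 8 of the 13 populations. The phi values are descriptions of the cells of 1 sample each.

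Klf2 and Il7r, well-known Foxo1 targets in T cells, had shares that took a course of their own. Klf2 was present in 34.7% of the cells after 1 division (27.0 to 43.1%) and 37.8% at day 3 (29.8 to 46.2%), against 79.9% of naive cells (72.5 to 86.0%), while Foxo1 was found in 31.2 and 29.4% against 23.5%. Among cells with 8 to 14 other assays the Klf2 differences from naive were -21.9 points after the first division and -9.68 at day 3, so that the day 3 call ended there. By day 5, unsorted cells had Klf2 in 93.5% (88.4 to 96.8%) and Foxo1 in 26.6%. In Tem, Klf2 was found in 74.3% of cells (66.1 to 81.4%), against 81.9% in Tcm, although Foxo1 was found in 4.41 against 26.1%. Across the 13 populations the shares of Foxo1 and Klf2 had a Spearman rho of 0.04, those of Foxo1 and Il7r -0.12, and those of Foxp1 and Klf2 -0.52. The points differ in depth, and the rho of the Foxo1 share with the median number of assays was 0.69.

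Il7r was found in 32.9% of naive cells and, at days 2, 3 and 5, in 6.25, 9.09 and 6.49% of first-division and unsorted cells. In the window of 8 to 14 other assays its differences from naive were -18.4 points after the first division and -19.5 at day 3, just under 20 points. They were -32.3 points in unsorted day 5 cells and -22.5 in unsorted day 7 cells, the latter against -12 over all cells. At day 7 Il7r was found in 20.9% of unsorted cells, 19.4% of Tmp and 2.25% of Tsle, and at day 45 in 52.9% of Tcm and 15.4% of Tem. Its rho over populations was 0.29 with Foxo3 and -0.23 with Foxp1. Whether its protein was used to sort these subsets is not given.

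The RefSeq promoters of both targets are shown because forkhead factors act through DNA motifs, and are given 5′ to 3′ on the gene's strand (GRCm38.p6, 250 bases before to 50 after the start). Klf2 lies on the + strand at chr8:72318812-72319111 and Il7r on the - strand at chr15:9529827-9530126. Capitals mark the forkhead core TGTTT or its reverse complement AAACA, searched on both strands.
Klf2: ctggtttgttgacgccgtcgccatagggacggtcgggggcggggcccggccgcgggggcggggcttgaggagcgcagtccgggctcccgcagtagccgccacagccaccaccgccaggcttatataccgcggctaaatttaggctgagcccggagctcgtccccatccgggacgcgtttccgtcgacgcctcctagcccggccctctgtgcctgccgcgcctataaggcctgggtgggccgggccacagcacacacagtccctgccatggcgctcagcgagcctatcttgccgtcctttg
Il7r: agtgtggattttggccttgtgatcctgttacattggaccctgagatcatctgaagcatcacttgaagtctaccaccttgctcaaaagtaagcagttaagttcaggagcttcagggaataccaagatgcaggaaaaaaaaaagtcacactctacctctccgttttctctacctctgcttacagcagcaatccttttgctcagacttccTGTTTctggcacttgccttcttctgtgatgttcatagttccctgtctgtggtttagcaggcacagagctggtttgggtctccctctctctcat
The core stood once in the Il7r window and not in the Klf2 window, and 50.5% of the 32851 RefSeq promoters of this length hold it. The longer Foxo motif TGTTTAC (reverse complement GTAAACA), which contains that core, was in neither window and in 3.65% of all. A match is a description of letters only, and says nothing of binding.

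Klf2 was found more often in cells with Foxo1 than in cells without it in 10 of 13 populations. Over the 13 populations 262 cells had both, against 251 expected (ratio 1.04, 0.92 to 1.18), and Klf2 ranked 33 of 59 assays by this ratio. Where a gene is in most cells, as Klf2 was in naive cells and from day 5 on, the ratio cannot rise far above 1. Its value and rank for Klf2, here and below, are therefore not comparable with those of rarer genes. By mean phi within populations Klf2 ranked 24 of 55 with Foxo1 (0.04, against a median of 0.03). The share of Klf2 in cells with and without Foxo1 was 44.4 against 30.3% in first-division cells, 47.6 against 33.7% at day 3 and 88.9 against 79.4% in Tcm. It was lower with Foxo1 in 3 populations, naive (74.3 against 81.6%), distal (22.2 against 33.3%) and day 5 Tmp (59.3 against 82.5%). Among the cells with Klf2, its median value was higher in those with Foxo1 in 8 of 12 populations with at least 5 cells on both sides.

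Il7r was found in 70 cells together with Foxo1, against 58.5 expected (ratio 1.20, 0.93 to 1.51), which ranked 11 of 59. Joint detection exceeded expectation in 10 of 13 populations, in several of them by less than 1 cell. Among these were day 3 (4 against 3.82), day 5 Tmp (5 against 4.5) and Tem (1 against 0.926). The widest gap was in day 7 Tmp, where Il7r was found in 6 of 13 cells with Foxo1 (46.2%) and 6 of 49 without it (12.2%), 6 joint cells against 2.52 expected and 3.42 within column parts. At day 5 it was found in 14.6% of unsorted cells with Foxo1 and 3.54% of those without it. In naive cells the order was opposite, 25.7 against 35.1%, and in Tcm the shares were 58.3 and 51.0%.

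**Figure D4:**
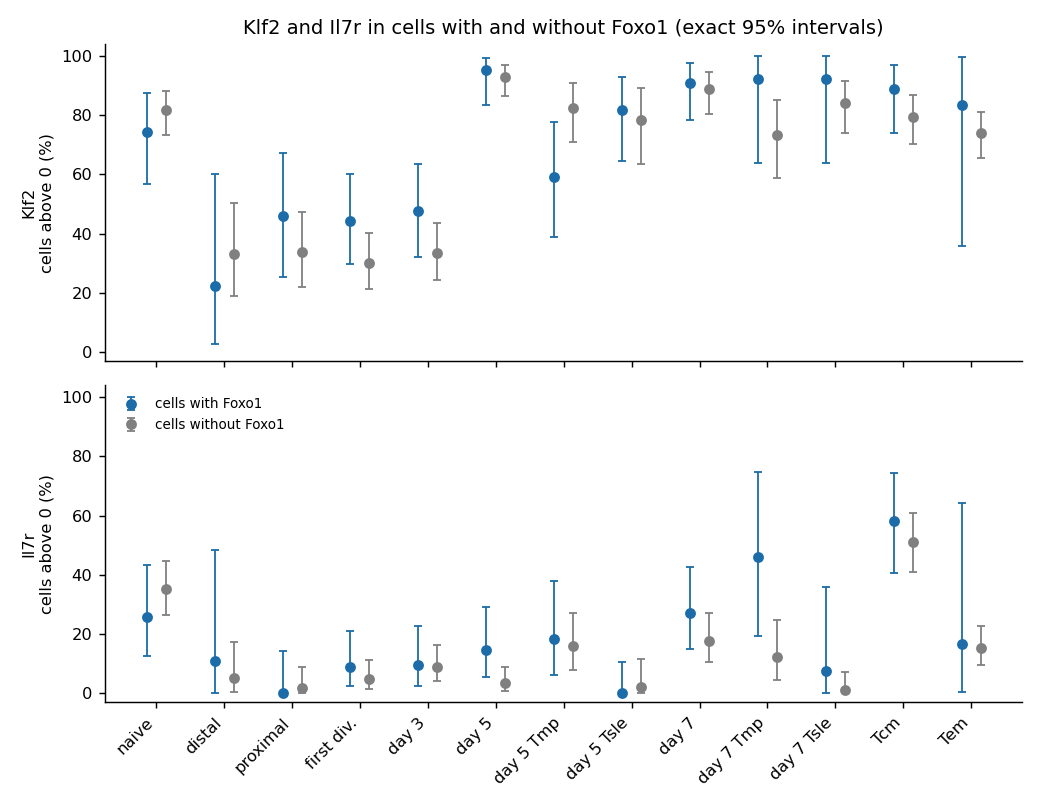
Share of cells above 0 (percent) for Klf2 (top) and Il7r (bottom) among cells with Foxo1 (blue) and without it (grey) in each population, with exact 95% intervals. Klf2 stands lower in both kinds of cell at days 2 and 3 than in naive cells, and Il7r is at 46.2% with Foxo1 and 12.2% without it in day 7 Tmp.

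Foxp1, described as opposing Foxo1 at Il7r, was found together with Il7r in 52 cells, against 43.8 expected (ratio 1.19, 0.89 to 1.56) and 46.9 expected within column parts. In Tcm Il7r was found in 72.2% of cells with Foxp1 (13 of 18) and 50.0% without it, and in naive cells in 41.9 against 29.2%. The median ratio with Foxp1 over 53 assays was 1.07, and Il7r ranked 12 among them. Joint cells exceeded expectation in 6 of the 13 populations, and the order was opposite in all the others. Among these were first-division cells (4.65 against 6.93%), day 5 Tmp (11.1 against 17.3%) and Tem (12.5 against 15.6%). Foxp1 with Klf2 gave 177 cells against 178 expected (0.99). Foxo3, whose targets overlap those of Foxo1, gave ratios of 1.04 with Klf2 (121 cells) and 1.02 with Il7r (28 cells).

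Of 18 genes listed as under Foxo control in lymphocytes, 9 were measured. Of these, 3 were at least 20 points lower and 1 higher in first-division than in naive cells. Klf2 and Il7r were among the lower ones, and the higher one was Eomes, a T-box factor (41.7 against 10.7%). Over all rows 3.16% were lower and 10.5% higher by that size. The median difference of the list was -4.33 points and that of all assay rows 4.17. In Tem against Tcm, 4 were lower and 0 higher, and the lower ones included Il7r, Eomes and Tcf7, whose product Tcf-1 marks cells able to self-renew. There Eomes was found in 5.88 against 29.0% and Tcf7 in 47.8 against 71.7%, with medians of -7.62 points for the list and -2.15 for all rows. Of all rows 12.6% were lower there and 0% higher by that size.

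Between days 5 and 3, Tcf7 (13.6 against 76.2%) and the lymph node homing receptor Ccr7 (5.19 against 35.7%) were found less often, beside Foxp1. Klf2 was found more often, a direction that 12.6% of rows took by that size, and the list's median was -5.59 points, against 0 for all rows. Of 6 measured genes of the signals that act on Foxo factors and of growth, 4 were higher in first-division than naive cells, namely Myc, the costimulatory receptor Cd28, and Il2ra and Il2rb of the interleukin-2 receptor, and none lower, where 10.5% of all rows were higher and 3.16% lower. Their median was 28.7 points, against 4.17 over all rows. Of 9 effector genes, 3 were higher in that comparison (Eomes, Irf4 and Irf8), none was lower and the median was 4.17 points, the same as over all rows. Of 3 measured genes of apoptosis and mitophagy, 1 was higher, none was lower and the median was 17.4 points.

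By the shares over the 13 populations, the genes most like Foxp1 were Tox, a nuclear factor of T cell development and exhaustion (rho 0.89), Tcf12, which encodes an E protein (0.82), and the glycolytic enzyme Hk2 (0.79). Tox was present in 15.4% of naive, 37.1% of day 3 and 4.55% of unsorted day 5 cells. Hk2 was found in no more than 3.61% of any population, so its rank rests on few cells. Most like Foxo1 were the proteasome subunit Psmb7 (0.79), Ptprc (0.75) and Bmi1, a Polycomb protein (0.71), of which Ptprc and Bmi1 had 0.52 and 0.58 over the 9 populations other than Tmp and Tsle. Most like Foxo3 were Bnip3l, a receptor of mitophagy (0.83), Stat4 (0.73) and Cd44 (0.66). Cd44 was found in 47 cells in all and in 0 naive, distal and day 7 Tmp cells, which allows shares of up to 2.01, 6.25 and 4.84%, and the rho of the Foxo3 share with the median number of assays was 0.58. By phi within populations the leading assays included Ccr7 and Nfatc2 for Foxo1 (mean phi 0.12 and 0.10), Lgals1, Nfatc1 and Prdm1 for Foxo3 (0.10, 0.08 and 0.07), and Rpl35 and Zfp281 for Foxp1 (0.08 and 0.07). For Foxo1, Il7r ranked 4 of 55 assays by mean phi (0.08), Foxp1 10, Foxo3 20 and Klf2 24. For Foxp1, Foxo1 ranked 6 of 55 (0.06), Il7r 18, Klf2 31 and Foxo3 41. These phi values are weak, and the median over assays was 0.01 to 0.03.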

How the data were processed

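Single CD8+ T cells were lysed, reverse transcribed and preamplified for 18 cycles with pooled TaqMan assays and measured on Fluidigm dynamic arrays, per the labels' protocols. The values are log2 amounts as deposited, 1 table of 95 assay rows (Il2 in 2 of them) by 1449 cells, with columns named by population. The labels call them Ct, but 83.4% are exactly 0, the others run from 1.01 to 35.0, and R18s and Actb have the highest medians among widely detected assays (27.4 and 20.1), so they were read as a constant minus Ct. The sources used here do not say how they were converted, which array held which cell, or how cells were filtered.

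A transcript counted as found at a value above 0, and 95.8% of such member values were above 12. Shares have exact 95% intervals. No test was run. Differences are first population minus second, called at 20 points in share or 1 cycle in the median (at least 10 detected cells on both sides). There were 10 pairs, and 6 were added after the values were seen. Expected joint cells are products of shares within populations, added up. The precision is set by 48 to 154 cells per population. Where none of a population's cells has a transcript, 3 cells set the upper limit, 1.95 to 6.25% by population. Members, lists and rules were chosen with earlier results of these data known. Named genes are the members, Klf2, Il7r, the 3 assays with the highest Spearman rho and the 3 with the highest phi per member, and list members past the size, of which some are not reported here.

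Alternatives were detection above 12, 14 and 16, at least 10 assays per cell, earlier or later columns alone, a size of 10 points, centring on Actb and Gapdh or on R18s, means, expected numbers within column parts and within 3 classes of cells by other assays, Pearson's r, leaving out Tmp and Tsle populations and, added later, cells with 8 to 14 other assays. Accessions of 93 rows matched the RefSeq table (GRCm38.p6). Python 3.11.15, numpy 2.4.6, scipy 1.17.1, statsmodels 0.14.6 and matplotlib 3.10.9 were used, and the scripts were tested on simulated data.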

Additional observations from a re-analysis of the deposited data

Results flagged for a closer look

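Tsle and Tmp cells stood in opposite orders at the 2 times. The Foxo1 share of Tsle minus Tmp was 11.8 points at day 5 and -6.36 at day 7, and that of Foxp1 was 7.72 at day 5 and -9.88 at day 7. Among cells with 8 to 14 other assays above 0 the order was the same at both times. Foxo1 was at -4.09 points at day 5 and -1.36 at day 7, and Foxp1 at -4.54 and -7.43. At day 5 that window held Foxo1 in 9 of 26 Tsle and 12 of 31 Tmp cells, and Foxp1 in 4 of 27 and 6 of 31. These are too few to show whether the pattern was gone. Pairings of column parts crossed 0 for Foxp1 at day 5 (-2.74 to 18.1) and for both genes at day 7. With 1 sample per population the difference between the times was not tested, and none of the 4 values reached 20 points. Foxp1, found in 17.7% or less of each of these populations, could not reach that size. Day 7 Tsle and Tmp cells had medians of 13 and 14 assays above 0, against 17 and 16 at day 5.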

How the results depend on the processing

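No paired analysis was possible because each population is 1 sample. Of 273 member shares recomputed under 7 settings, 201 stayed within the interval of the reported share and 72 did not, 38 of them at detection above 16, close to the members' own values. All 39 stayed within it at detection above 12 and with at least 10 assays per cell. The 27 co-detection ratios recomputed also stayed within their Poisson intervals, which are wider than the spread under independence. Of 560 share differences of the members, Klf2 and Il7r, 479 stayed within theirs, 80 did not and 1 turned round, and of 18 likeness values 10 kept the gene among the first 3.

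Of the share differences that moved or turned round, 22 were those of the members in the 10 main comparisons, given here in points. For Foxo1, first-division minus naive was -3.42 with the earlier columns and 18.9 with the later ones, and Tem minus naive was -8.6 at detection above 14 and 0 above 16. Tem minus Tcm was 0 above 16. With 8 to 14 other assays, Foxo1 gave 20.7 for day 3, -10.9 for day 5 and -23 for Tcm minus naive, -4.09 for day 5 Tsle minus Tmp and, reversed, 4.31 for Tem minus Tcm. For Foxp1, day 3 minus naive was 22.2 with the earlier columns and -0.0556 with the later ones, and day 5 minus naive -3.6 and -26.8. At detection above 16 the Foxp1 values against naive were -3.36 at day 5, 1.87 at day 7, -3.36 in Tcm and -3.36 in Tem, and Tem minus Tcm was 0. With 8 to 14 other assays Foxp1 gave -4.54 for day 5 Tsle minus Tmp and 2.46 for Tem minus Tcm. In the added comparisons that window gave 22.7 for Foxo1 and 20.7 for Foxp1 in day 3 minus first-division, and for Foxo1 -31.6 in day 5 minus day 3 and -15.2 in Tcm minus day 7 Tmp. The share of all assay rows that far apart within the window was not counted. For Foxo3, day 7 minus naive was 0.0751 above 16. The cause was not tested, beyond the fewer cells or positive values these settings leave.

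Of 262 recomputed median differences in detected cells, 12 turned round. Centred on Actb and Gapdh and on R18s, these were Foxp1 in first-division minus naive (-0.59 and -0.62), Foxo1 in day 7 Tsle minus Tmp (0.52 and 1.84) and Foxo1 in day 3 minus first-division (0.93 and 1.35, and 0.12 with the later columns). Foxo1 in day 5 minus day 3 was -0.15 centred on Actb and Gapdh, and in day 5 Tsle minus Tmp -0.03 centred on R18s. With the earlier columns Foxo3 gave -1.42 for day 3 minus naive, -3.07 for day 3 minus first-division and 0.65 for day 5 minus day 3. The number of assay rows 20 points apart in the 16 comparisons, 5 to 21, was 4 to 18 at detection above 12, 2 to 11 above 16, 4 to 31 in the earlier and 4 to 17 in the later columns, and 11 to 36 at 10 points.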
